A study of Rattus norvegicus with 12 samples.

Results

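The urea cycle genes examined here were the 6 that encode the hepatic enzymes of urea synthesis: Nags, Cps1, Otc, Ass1, Asl and Arg1. Probes were chosen by gene name, with Ass accepted for Ass1 and Nags_predicted for Nags, or by a description naming one of the enzymes. This gave 1 named probe for each of the 6 genes, of 26533 genes tested in all, and 2 further probes matched by description only. RNA came from primary hepatocytes of Sprague-Dawley rats aged 11 weeks, plated after collagenase perfusion of the liver and kept in culture, the last day without serum, before exposure. There were 4 groups of 3 one-colour arrays: female and male cells given 100 nM dexamethasone (the labels write the unit as nm), a synthetic glucocorticoid, for 6 h, and female and male cells given vehicle, 0.01% ethanol, for the same 6 h. The labels name no genetic change. They do not say whether replicates were separate animals or cultures, so the p-values speak only to the variation among these samples, part of which may be technical.

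Hepatocytes convert toxic ammonia to urea through a cycle that starts in the mitochondrion and ends in the cytosol. Carbamoyl phosphate synthetase 1 makes carbamoyl phosphate from ammonia and bicarbonate, and it works only when bound by N-acetylglutamate, the product of Nags. Otc joins carbamoyl phosphate to ornithine, Ass1 and Asl then build and split argininosuccinate, and Arg1 cleaves arginine to urea and ornithine. Glucocorticoids, glucagon and a high-protein diet are known to raise expression of urea cycle enzymes in rat liver.

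Each level below rests on 1 oligonucleotide of 60 bases, so these sequences define what was measured. They are shown for the 5 enzymes whose probe coordinates in the files span more than the 60 bases of the probe. Nothing is capitalised, since each probe reads out as a whole.
Nags probe: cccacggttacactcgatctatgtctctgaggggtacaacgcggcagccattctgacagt
Cps1 probe: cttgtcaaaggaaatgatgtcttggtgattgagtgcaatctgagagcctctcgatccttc
Otc probe: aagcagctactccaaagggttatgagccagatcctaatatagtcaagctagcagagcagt
Ass1 probe: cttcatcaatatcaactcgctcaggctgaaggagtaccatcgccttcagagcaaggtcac
Asl probe: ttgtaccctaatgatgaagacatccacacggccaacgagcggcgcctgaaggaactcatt
The Nags probe lay at chr10:91228314-91228480 on the plus strand of rn3 and the Cps1 probe at chr9:66149431-66150759 on the plus strand. The Otc probe lay at chrX:24672753-24677958 on the minus strand. The Ass1 probe lay at chr3:10522200-10523552 and the Asl probe at chr12:27575983-27576254, both on the plus strand. The Arg1 probe matched one ungapped stretch, chr1:21011212-21011271 on the plus strand. Exon, intron or untranslated region was not assigned, since no rn3 annotation was used here. All 6 probes were well above background on all 12 arrays, and none was saturated.

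The 250 bases before the annotated start were read from RefSeq for 5 of the 6 genes on GRCr8. They are printed for Nags and Cps1, which had higher levels in dexamethasone, and for Otc, which did not. Capitals would mark matches to motifs of the glucocorticoid receptor and of C/EBP factors.
Nags upstream window, GRCr8 chr10:87598266-87598515, plus strand: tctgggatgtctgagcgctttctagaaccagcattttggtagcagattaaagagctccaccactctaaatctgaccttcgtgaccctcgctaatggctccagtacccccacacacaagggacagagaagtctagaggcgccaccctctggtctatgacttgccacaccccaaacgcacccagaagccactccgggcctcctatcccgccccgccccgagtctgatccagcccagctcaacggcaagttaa
Cps1 upstream window, GRCr8 chr9:76063613-76063862, plus strand: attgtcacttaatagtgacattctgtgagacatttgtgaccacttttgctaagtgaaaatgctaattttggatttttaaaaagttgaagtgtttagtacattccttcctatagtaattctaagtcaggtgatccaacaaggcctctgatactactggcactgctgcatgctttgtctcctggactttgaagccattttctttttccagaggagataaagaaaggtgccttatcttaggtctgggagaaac
Otc upstream window, GRCr8 chrX:15202474-15202723, minus strand: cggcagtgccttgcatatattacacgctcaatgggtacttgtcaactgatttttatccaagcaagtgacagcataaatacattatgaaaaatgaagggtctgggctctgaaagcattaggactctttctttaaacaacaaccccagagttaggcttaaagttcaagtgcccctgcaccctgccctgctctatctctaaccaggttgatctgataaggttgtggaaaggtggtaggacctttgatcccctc
None of the 5 windows held the glucocorticoid response palindrome (GNACA and TGTNC, 3 bases apart), its half-site AGAACA, which can overlap it, or the C/EBP motif TTGCNNAA on either strand, so none has capitals. Among 33469 rat promoter windows of the same length the palindrome was found in 0.373%, the half-site in 17.5% and the C/EBP motif in 9.22%. The cyclic AMP response element TGACGTCA (1.59% of windows) and its half-site TGACG (18.2%), which the full element contains, were also in none of the 5. The letters TATAAA, found on either strand in 12.9% of windows, matched in the Ass1 window alone. That match was on the strand opposite to the gene, where the window reads TTTATA at -60 to -55 from the start. A missing match says only that these letters are not in this window.

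The arrays differed by slide. Of the female arrays, all 3 given dexamethasone and vehicle replicate 3 shared slide 3, and vehicle replicates 1 and 2 were on slide 2. Of the male arrays, dexamethasone replicates 2 and 3 were on slide 2, and dexamethasone replicate 1 was on slide 1 together with all 3 given vehicle. Between 46.6% and 67.0% of probes were well above background on the 4 arrays of slide 1, and 72.7% to 80.6% on the other 8. A separate label field gives the gender of all 12 samples as male, and the sexes used here are those of the titles. Cyp2c12, a female-predominant cytochrome P450 of rat liver, had levels of 3.79 to 4.82 on the 6 arrays titled female and 0.86 to 2.77 on the 6 titled male. Cyp2c13, a male-predominant one, had levels of -1.58 to 0.06 on arrays titled female and 1.85 to 3.07 on arrays titled male (both chosen after their values were seen). Levels are log2 signals relative to the array's 75th percentile, where 0 equals that percentile. The exposure itself was visible in Fkbp5, a glucocorticoid receptor co-chaperone, which was 7.18-fold higher in females and 7.60-fold higher in males (limma adjusted p = 4.7e-05 and 4.5e-05). All 10 hepatocyte markers were well above background on all 12 arrays.

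Past the threshold, Cps1 rose in dexamethasone in both sexes, Nags and Ass1 rose in females, and Arg1 rose in males. Nags was at 0.68 log2 units in males (limma adjusted p = 0.075) and Arg1 at 0.79 in females (0.11). With slide as a fixed block 0 of the 6 genes were called in either sex, where 300 of all genes were called in females and 471 in males. In females 3 of the 6 genes rose (Cps1, Nags and Ass1) and 0 fell, where 3.01% of all genes rose and 1.13% fell (4.14% in either direction). In males 2 of the 6 rose (Cps1 and Arg1) and 0 fell, where 5.21% of all genes rose and 4.88% fell (10.1% in either direction). Otc alone of the 6 had a difference below 0, in both sexes and not past the test. In cultures, fewer cells of a type and less RNA per cell cannot be told apart. The summed level of the 10 hepatocyte markers was 1697 to 1911 in female dexamethasone and 1441 to 1888 in female vehicle arrays, and 1708 to 1945 in male dexamethasone and 2220 to 2697 in male vehicle arrays, with overlap in females only. One of these markers, Tat, was itself higher in dexamethasone, 8.95-fold in females and 7.08-fold in males. The summed level of the 10 pericentral markers was 51.4 to 54.2 in female dexamethasone and 37.9 to 45.2 in female vehicle arrays. In males it overlapped, at 49.8 to 76.0 in dexamethasone and 47.9 to 55.6 in vehicle. That list includes Glul, and 0 of its 10 genes were called in females by limma. Periportal markers overlapped in females, at 55.5 to 92.9 in dexamethasone and 53.5 to 78.1 in vehicle. The part of these cells and zones in the responses was not tested. The median difference over the 6 genes was 1.22 log2 units in females, against -0.02 over all genes, and 0.55 in males, against -0.07 over all genes. Tests are limma's moderated test on 12 arrays, two-sided, with Benjamini-Hochberg adjustment over all 26533 genes and a threshold of 0.05.

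**Figure D1:**
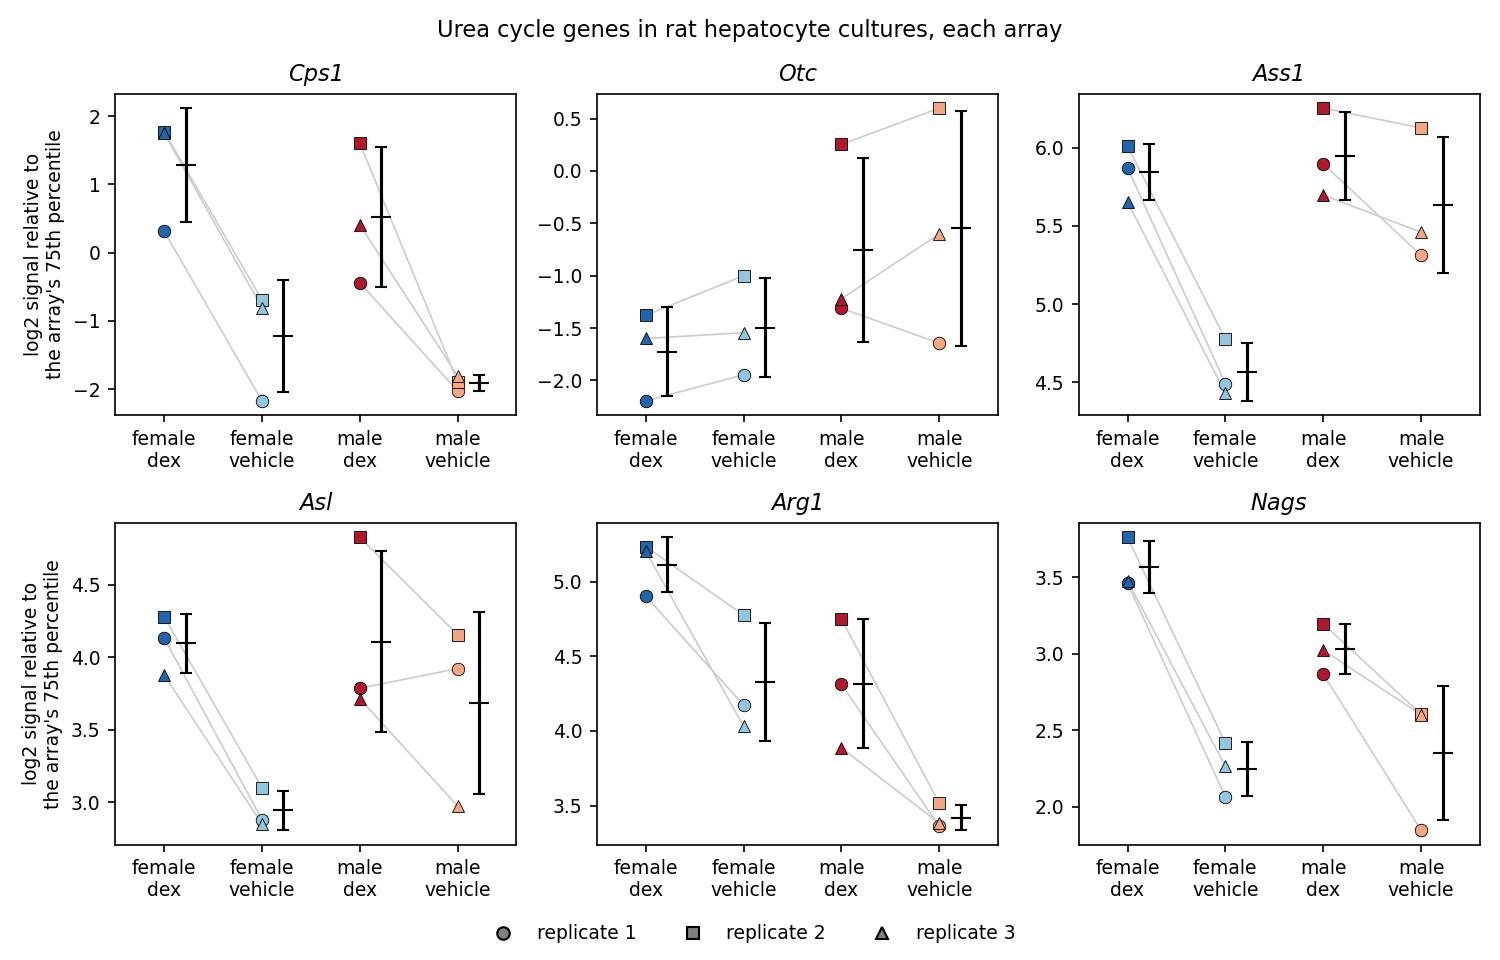
Level of each urea cycle gene on each of the 12 arrays (y axis, log2 signal relative to the array's 75th percentile; each panel has its own scale), by group (x axis), with the mean and SD of 3 arrays in black and grey lines joining samples of the same sex and replicate number. Cps1 lay higher in dexamethasone than in vehicle in all 6 pairs, and Otc in 1 of them.

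Nags makes N-acetylglutamate, the obligatory activator of the first enzyme. Its levels were 3.46, 3.76 and 3.48 in female dexamethasone cultures, against 2.07, 2.42 and 2.26 in female vehicle cultures. In males they were 2.87, 3.20 and 3.02 in dexamethasone and 1.85, 2.61 and 2.60 in vehicle. The groups did not overlap in either sex, as held for 33.8% of all genes in females and 25.6% in males. The difference was 1.32 ± 0.22 log2 units in females (SE; 2.49-fold, limma adjusted p = 0.0099). In males it was 0.68 ± 0.22 log2 units (SE; 1.60-fold), with a limma adjusted p of 0.075 and of 0.0325 with the replicate number as a block. Male vehicle replicate 1 was the lowest of the 6 male samples. The female call was lost without female dexamethasone replicate 2 (adjusted p = 0.0524). Within slide 3 the female difference was 1.30 (limma adjusted p = 0.0459, and 0.109 with slide as a fixed block).

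Cps1 is the rate-limiting mitochondrial enzyme that fixes ammonia, and it had the largest response of the 6 genes in each sex. In females its levels were 0.31, 1.77 and 1.75 in dexamethasone, against -2.17, -0.69 and -0.81 in vehicle. In males they were -0.44, 1.61 and 0.41 in dexamethasone, against -2.03, -1.89 and -1.81 in vehicle. Neither sex had overlap between its groups, and the 3 male vehicle arrays lay close together (SD 0.11) while the male dexamethasone arrays were spread widely (SD 1.03). The difference was 2.50 ± 0.56 log2 units in females (SE; 5.67-fold, limma adjusted p = 0.035) and 2.43 ± 0.56 in males (SE; 5.40-fold, limma adjusted p = 0.023). Paired by replicate number, the female differences were nearly alike, from 2.47 to 2.56, and the male ones ran from 1.59 to 3.50. Replicate 1 was the lowest sample of its group in all 4 groups. Within slide 1, where male dexamethasone is 1 array, the male difference was 1.47 (limma adjusted p = 0.444), and within slide 3, where female vehicle is 1 array, the female difference was 2.09 (limma adjusted p = 0.2). The female call was lost without female dexamethasone replicate 2 (adjusted p = 0.132) or 3 (0.121), female vehicle replicate 1 (0.128) or 3 (0.0756), or male dexamethasone replicate 3 (0.0522), and the male call without male dexamethasone replicate 2 (0.0769) or 3 (0.0586) or male vehicle replicate 1 (0.0556). The female call was also lost with quantile normalization (0.0556) and without the filter on dim probes (0.0541).

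Otc, the mitochondrial enzyme that makes citrulline, had levels of -2.19, -1.38 and -1.60 in female dexamethasone cultures and -1.95, -0.9995 and -1.54 in female vehicle cultures. Its levels in males were -1.31, 0.25 and -1.22 in dexamethasone and -1.64, 0.60 and -0.60 in vehicle. The groups overlapped in both sexes, and replicate 2 was the highest sample of every group. The difference was -0.23 log2 units in females (95% interval -1.46 to 1.01, limma adjusted p = 0.93) and -0.21 in males (95% interval -1.45 to 1.03, adjusted p = 0.85). These intervals reach past both a fall and a rise of 1 log2 unit. The second probe matched to this enzyme by description was above background on 0 arrays and gave no level.

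Ass1 joins citrulline to aspartate in the cytosol and is also expressed outside the liver. Its levels were 5.87, 6.01 and 5.65 in female dexamethasone cultures, against 4.49, 4.78 and 4.43 in female vehicle cultures. In males they were 5.90, 6.25 and 5.70 in dexamethasone and 5.31, 6.13 and 5.46 in vehicle. The female groups were fully apart, and the male groups overlapped because vehicle replicate 2 exceeded 2 of the dexamethasone arrays. The difference was 1.28 ± 0.23 log2 units in females (SE; 2.43-fold, limma adjusted p = 0.015) and 0.32 ± 0.23 in males (SE; limma adjusted p = 0.43). The female call was lost without female dexamethasone replicate 1 (adjusted p = 0.0646) or 2 (0.0724), or female vehicle replicate 1 (0.0655) or 3 (0.0664). Within slide 3 the female difference was 1.42 (limma adjusted p = 0.0424, and 0.108 with slide as a fixed block).

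Asl, which splits argininosuccinate into arginine and fumarate, had non-overlapping groups in females only. In females its levels were 4.13, 4.28 and 3.88 in dexamethasone and 2.88, 3.0998 and 2.85 in vehicle. In males they were 3.79, 4.83 and 3.71 in dexamethasone and 3.92, 4.16 and 2.97 in vehicle, and the groups overlapped. The female difference was 1.15 ± 0.34 log2 units (SE; 2.22-fold), with a limma adjusted p of 0.092 and of 0.0241 with the replicate number as a block. The male difference was 0.42 ± 0.34 log2 units (SE; limma adjusted p = 0.47). The female difference passed the test without male dexamethasone replicate 2 (adjusted p = 0.0481), without male vehicle replicate 3 (0.0413) and without the whole of slide 1 (0.0464).

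Arg1, the liver arginase that releases urea, had levels of 4.90, 5.24 and 5.20 in female dexamethasone cultures and 4.17, 4.78 and 4.03 in female vehicle cultures. In males they were 4.31, 4.75 and 3.89 in dexamethasone and 3.36, 3.51 and 3.38 in vehicle. The groups did not overlap in either sex. The difference was 0.90 ± 0.25 log2 units in males (SE; 1.86-fold, limma adjusted p = 0.044) and 0.79 ± 0.25 in females (SE; 1.73-fold, limma adjusted p = 0.11). The male call was lost when any 1 of 10 arrays was left out, with adjusted p-values of up to 0.145; the exceptions were male dexamethasone replicate 3 and female vehicle replicate 2, and without the last the female difference passed (adjusted p = 0.0492). Within slide 1 the male difference was 0.89 (limma adjusted p = 0.681, and 0.243 with slide as a fixed block). Macrophages can also express Arg1. The summed level of the 13 measured markers of Kupffer cells and macrophages (of 15 listed), relative to the 75th percentile, was 66.8 to 139 in female dexamethasone arrays, 54.7 to 113 in female vehicle arrays, 60.8 to 119 in male dexamethasone arrays and 52.1 to 101 in male vehicle arrays. Their part in the Arg1 difference was not tested.

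**Figure D2:**
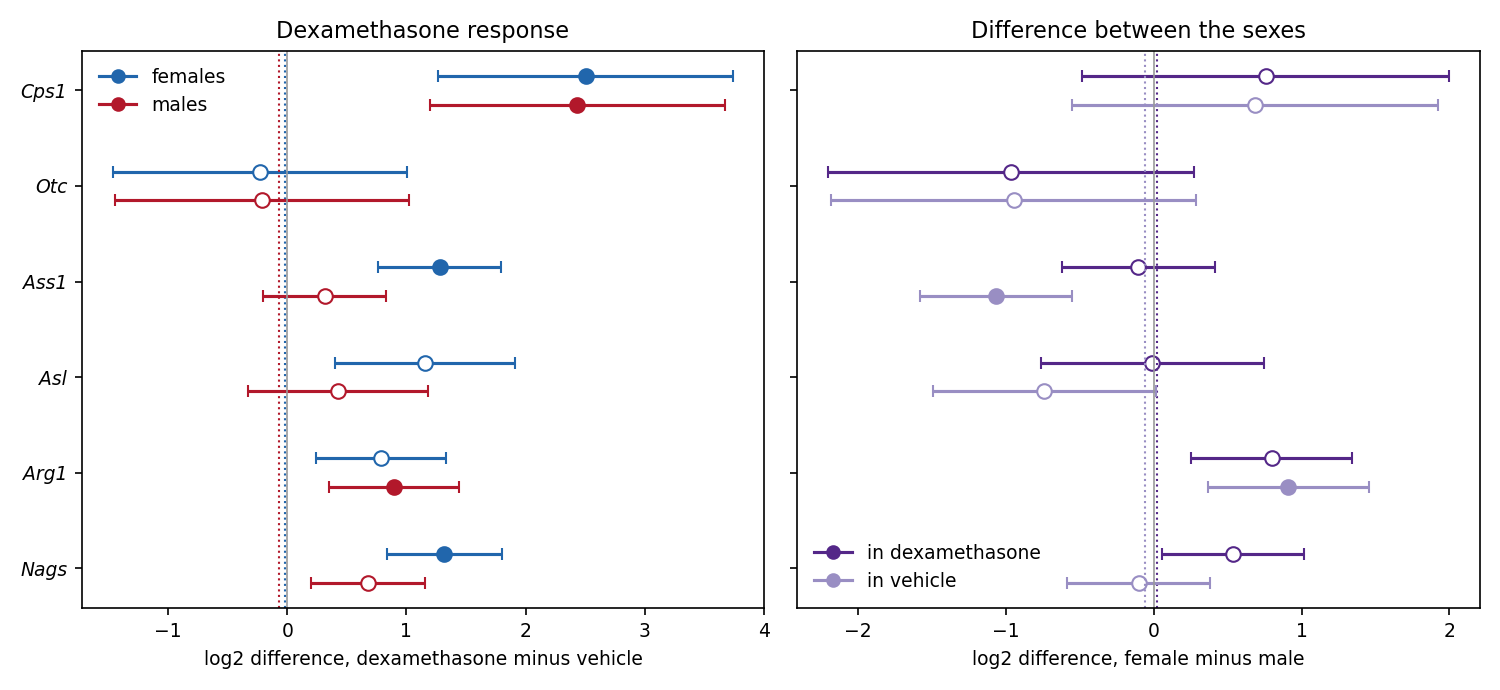
Differences of the 6 genes in log2 units with 95% intervals: dexamethasone minus vehicle by sex (left) and female minus male by treatment (right), filled where the limma adjusted p was under 0.05. Dotted lines mark the median of all genes, between -0.07 and 0.02. Cps1 lay at 2.50 in females and 2.43 in males.

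Whether the response depended on sex was tested as the difference of the responses, female minus male. Of the 6 genes 0 passed, where 0.106% of all genes did (0.0754% upward and 0.0302% downward; 3208 genes had an unadjusted p under 0.05), and 1 of the 6 (Ass1) had an unadjusted p under 0.05. Ass1 had the largest value, 0.96 ± 0.33 log2 units (SE; unadjusted p = 0.014, limma adjusted p = 0.26). Asl had 0.73 (adjusted p = 0.63) and Nags 0.64 (adjusted p = 0.45), while Cps1 had 0.07 (95% interval -1.68 to 1.82), Arg1 -0.11 (-0.88 to 0.66) and Otc -0.02 (-1.76 to 1.73). The calls in 1 sex and not in the other are therefore not shown to differ between the sexes.

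Averaged over both sexes, a contrast added after the data were seen, 4 of the 6 genes rose and 0 fell, where 6.78% of all genes rose and 6.61% fell (13.4% in either direction). Cps1 differed by 2.47 ± 0.40 log2 units (SE; limma adjusted p = 0.0031) and Nags by 1.00 ± 0.15 (adjusted p = 0.0025). Arg1 differed by 0.84 ± 0.17 and Ass1 by 0.80 ± 0.17 (adjusted p = 0.011 each). Asl had 0.79 ± 0.24 (adjusted p = 0.055, and 0.0119 with the replicate number as a block) and Otc -0.22 ± 0.40 (adjusted p = 0.76). With slide as a fixed block all 4 calls were lost, at adjusted p-values of 0.0991 for Cps1, 0.111 for Ass1, 0.0724 for Arg1 and 0.0734 for Nags.

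Between the sexes in vehicle, Arg1 was higher in females and Ass1 was lower in females. Of the 6 genes 1 was higher and 1 lower, where 5.83% of all genes were higher and 7.94% lower in females (13.8% in either direction). Arg1 differed by 0.91 ± 0.25 log2 units (SE; 1.88-fold higher in females, limma adjusted p = 0.035), and its female and male vehicle arrays did not overlap, as for 31.1% of all genes. Ass1 differed by -1.07 ± 0.23 log2 units (SE; 2.10-fold higher in males, adjusted p = 0.015), also without overlap. The Ass1 call was lost without female vehicle replicate 1 (adjusted p = 0.0566) or 3 (0.0547), and the Arg1 call without any 1 of 7 arrays (up to 0.113, without female vehicle replicate 2). Asl had -0.74 (adjusted p = 0.17, and 0.0389 without male vehicle replicate 3), Otc -0.95 (0.29), Cps1 0.69 (0.45) and Nags -0.10 (0.79). No slide held female and male cells of the same treatment, so slide and sex cannot be told apart within a slide. With slide as a fixed block Arg1 was at 1.05 (adjusted p = 0.332) and Ass1 at -1.08 (adjusted p = 0.319). Of 10 measured stellate cell and fibroblast markers 6 were higher in female vehicle cultures (Lrat, Pdgfrb, Col3a1, Dcn, Col1a2 and Vim), with summed levels of 13.4 to 20.3 in female vehicle arrays and 6.95 to 9.17 in male vehicle arrays. The marker Lum was above background on no array. Of the macrophage markers 1, Csf1r, was higher in female vehicle cultures past the threshold. The median difference of that list, female minus male, was 0.86 log2 units in vehicle, against -0.06 over all genes. In dexamethasone it was 0.77, against 0.02 over all genes. Summed levels of 4 other lists also lay apart without overlap in vehicle. Cholangiocyte markers had 30.5 to 46.0 in female arrays and 22.6 to 28.8 in male arrays, and periportal hepatocyte markers had 53.5 to 78.1 in female arrays and 28.4 to 44.6 in male arrays. Pericentral hepatocyte markers had 37.9 to 45.2 in female vehicle arrays and 47.9 to 55.6 in male ones, and general hepatocyte markers 1441 to 1888 in female and 2220 to 2697 in male ones. The part of these cells and zones in the sex differences was not tested.

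Between the sexes in dexamethasone 0 of the 6 genes passed, where 2.89% of all genes did (1.18% higher and 1.71% lower in females; 4857 genes had an unadjusted p under 0.05), and 2 of the 6 (Arg1 and Nags) had an unadjusted p under 0.05. Arg1 was at 0.80 ± 0.25 log2 units (SE; limma adjusted p = 0.11). Nags was at 0.54 (adjusted p = 0.22), Cps1 at 0.76 (0.52) and Otc at -0.97 (0.4). The Otc, Arg1 and Nags groups did not overlap, as for 32.3% of all genes. Ass1, which was lower in females in vehicle, was at -0.10 (95% interval -0.62 to 0.41) in dexamethasone, and Asl at -0.01 (-0.77 to 0.74).

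A second probe described as Nags, named TC521225 in the files, lay at rn3 chr7:21551118-21551177, whereas the named Nags probe lies on chromosome 10. Its levels were 0.55, 0.42 and 0.64 in female dexamethasone cultures and 0.57, 0.74 and 0.46 in female vehicle cultures. In males they were 2.71, 0.49 and 1.71 in dexamethasone and 3.21, 0.91 and 1.56 in vehicle. Its differences between dexamethasone and vehicle were -0.05 in females and -0.25 in males (limma adjusted p = 0.99 and 0.82), unlike those of the named probe, and it is treated as uncertain.

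Over the 12 arrays, levels of Ass1 and Asl correlated at r = 0.880 and those of Cps1 and Nags also at 0.880, and Cps1 and Arg1 correlated at 0.817. Otc correlated with Cps1 at -0.036 and with Nags at 0.013. These are descriptions over arrays that share slides and treatment, not tests. Among 8265 named genes measured on all arrays, the pattern most like that of Nags was Apoa5 (r = 0.961), of Cps1 Slc28a2 (0.954), of Otc Cyp3a62 (0.963), of Ass1 Scfd2 (0.956), of Asl Sra1 (0.947) and of Arg1 Rbl2 (0.948). Next in order came Rab3ip for Nags (0.951), Prkar1b for Cps1 (0.946), Gstt3 for Otc (0.956), Nfkbia for Ass1 (0.945), Nt5e for Asl (0.935) and Aspg for Arg1 (0.946).

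The genes around the cycle were examined in 3 lists. Their median differences were 0.23, 0.17 and 0.46 log2 units in females and 0.34, 0.16 and 0.63 in males for supply, other fates and regulators in turn, against -0.02 and -0.07 over all genes. Among 16 measured genes that supply the cycle (of 17 listed, with Slc25a13 not among the probe names), 2 rose in females, where 3.01% of all genes did, and 3 in males, where 5.21% did, and 0 fell in either sex. An unadjusted limma p under 0.05, in either direction, was found for 6 of the 16 in females and 6 in males. Over all 26533 genes it was found for 4573 in females and 7153 in males. Slc25a15, the mitochondrial ornithine carrier that links the cytosolic and mitochondrial steps, had levels of 4.14, 4.58 and 3.83 in female dexamethasone cultures and 1.23, 1.72 and 1.18 in female vehicle cultures. Its male levels were 3.28, 5.37 and 3.90 in dexamethasone and 2.15, 1.75 and 1.48 in vehicle. Without overlap in either sex, it differed by 2.81 ± 0.45 log2 units in females (SE; limma adjusted p = 0.0078) and 2.38 ± 0.45 in males (SE; adjusted p = 0.0099). Slc38a4, an amino acid transporter of the plasma membrane, rose by 1.06 log2 units in females (adjusted p = 0.0042) and 0.62 in males (adjusted p = 0.029). Slc25a22, a mitochondrial glutamate carrier, rose by 0.85 in males (adjusted p = 0.034) and was at 0.84 in females (adjusted p = 0.056). In each of the 3 lists 0 genes passed the difference of the responses by limma, where 0.106% of all genes did. In vehicle, Car5a, the mitochondrial carbonic anhydrase that supplies bicarbonate, was lower in females, at a difference of -1.56 log2 units (adjusted p = 0.038). That call held in 4 of 12 fits with 1 array left out (adjusted p up to 0.117) and was lost with slide as a fixed block (0.226) and with array weights (0.0719). In dexamethasone 0 of the list passed between the sexes by limma (3 at an unadjusted p under 0.05), and Slc14a1 had the smallest p, with -0.97 (adjusted p = 0.089).

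Of 12 genes for other fates of arginine, ornithine and ammonia, 0 rose and 1 fell in females by limma, where 3.01% of all genes rose and 1.13% fell. In males 2 rose and 1 fell, where 5.21% of all genes rose and 4.88% fell. An unadjusted limma p under 0.05, in either direction, was found for 4 of the 12 in females and 6 in males. Over all 26533 genes it was found for 4573 in females and 7153 in males. Aldh18a1, the first enzyme of ornithine and proline synthesis from glutamate, fell by 0.99 log2 units in females (limma adjusted p = 0.012) and by 1.01 in males (adjusted p = 0.0063). Glul, which condenses ammonia with glutamate, rose by 1.44 in males (adjusted p = 0.015) and was at 0.87 in females (adjusted p = 0.14). Arg2, the mitochondrial arginase, had a measured difference of 2.30 in males (adjusted p = 0.028) and 1.91 in females (adjusted p = 0.086). Only 1 of 3 male vehicle arrays was well above background. The size in males depended on the setting, at 1.04 (adjusted p = 0.052) with normexp and 3.09 (0.0819) with slide as a fixed block. In vehicle Rhbg, an ammonia transporter, was lower in females, at -0.99 (adjusted p = 0.0085, but 0.108 with slide as a fixed block and 0.0621 with only the groups compared). In dexamethasone 0 of these genes passed between the sexes by limma (4 at an unadjusted p under 0.05), and Glul had the smallest p, with -1.18 (adjusted p = 0.061). Of 14 regulators 2 rose in females and 1 in males as reported, where 3.01% and 5.21% of all genes rose. That male count is near its background. An unadjusted limma p under 0.05 was found for 6 of the 14 in females and 7 in males, where 4573 and 7153 of all genes had one. Klf15, a transcription factor of amino acid catabolism, had levels of 4.45, 4.34 and 4.38 in female dexamethasone cultures and 0.99, 1.68 and 1.47 in female vehicle cultures, an 8.05-fold rise (adjusted p = 0.00018). In males its levels were 3.65, 4.18 and 3.96 in dexamethasone and 1.06, 1.89 and 1.71 in vehicle, a 5.20-fold rise (adjusted p = 0.00076). Ppargc1a, a coactivator of the fasting response, was at least 2.70-fold higher in female dexamethasone cultures (adjusted p = 0.018), a bound on the processed signal set by the female vehicle arrays, none of which was well above background. The bound does not hold under other processing: with normexp the difference was 0.46 log2 units (adjusted p = 0.236), and the call was also lost with quantile normalization (0.139) and with slide as a fixed block (0.14). Between the sexes in vehicle both groups of Ppargc1a were not well above background, so no fold is given, and in dexamethasone Crtc2 had the smallest p of the list, with 0.41 (adjusted p = 0.29). With 1 array left out, Slc25a15 and Klf15 stayed called in 12 of 12 fits in each sex. Slc38a4 did in 12 of 12 in females and 7 of 12 in males. In males Glul did in 12 of 12, Slc25a22 in 3 of 12 and Arg2 in 8 of 12, and in females Ppargc1a in 8 of 12. Leaving out an array of the other sex does not change these differences. Aldh18a1 stayed called in 12 of 12 in males and 9 of 12 in females (adjusted p up to 0.056), and its female call was lost within slide 3 alone (0.0597). With slide as a fixed block the genes called in males were 0 of the supply list, 0 of the other fates and 1 of the regulators (Klf15), and in females 2 of the supply list (Slc25a15 and Slc38a4), 0 of the other fates and 1 of the regulators (Klf15). Other settings added calls. With the replicate block within sex, 6 regulators were higher and 1 lower in males, where 4175 of all genes were called. In females 4 were higher and 0 lower, where 1793 were called. With array weights 8 regulators were higher and 1 lower in females and 1 was higher in males, where 5241 and 917 of all genes were called.

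**Figure D3:**
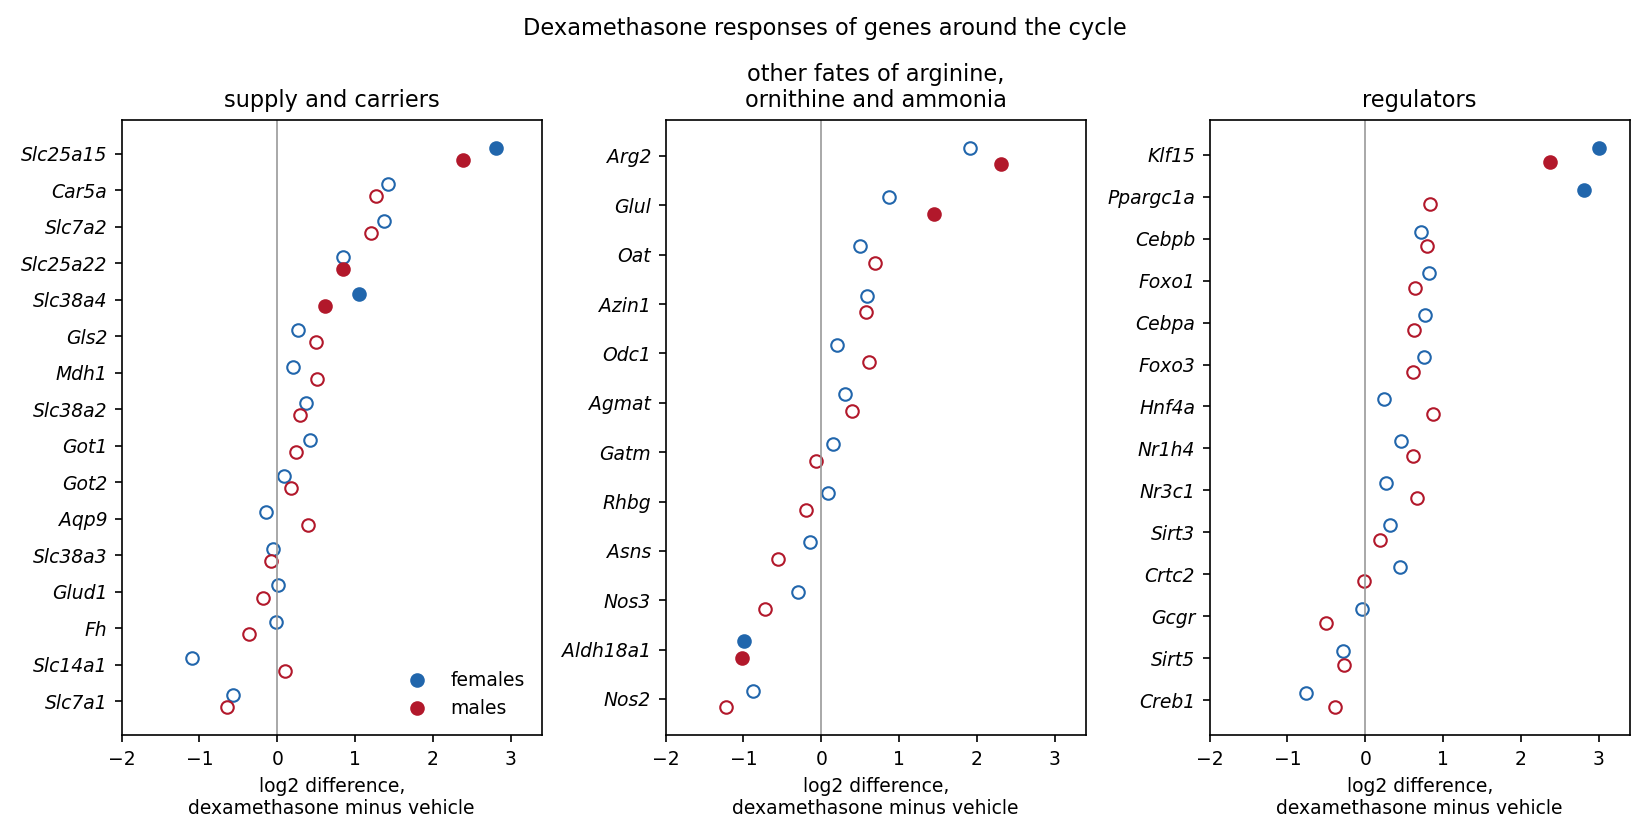
Dexamethasone minus vehicle in log2 units (x axis) for the measured genes around the cycle, in 3 lists, with females in blue and males in red, filled where the limma adjusted p was under 0.05. Values of genes below background in a group, such as Ppargc1a in female vehicle, are measured differences and not folds. Slc25a15 and Klf15 were filled in both sexes.

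**Figure D4:**
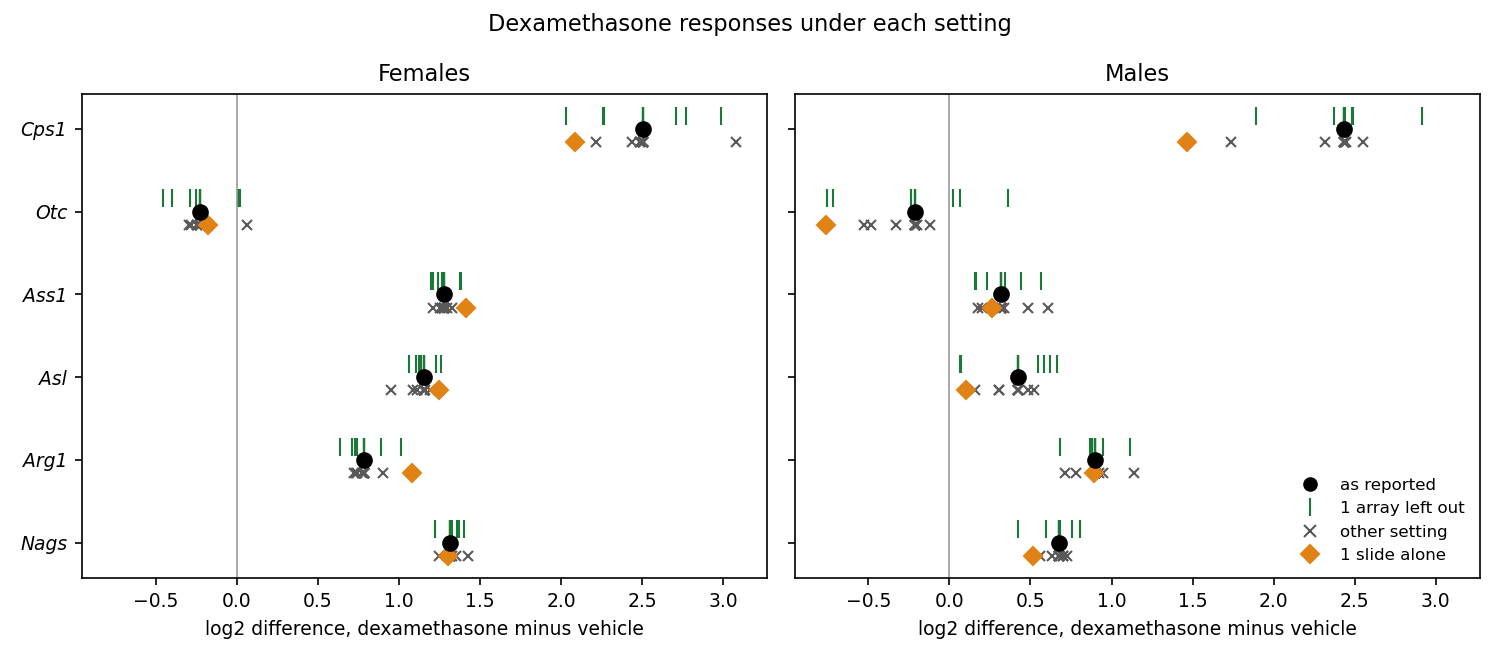
Dexamethasone minus vehicle (x axis, log2 units) for the 6 genes as reported (black), with 1 array left out (green bars), under the other settings (crosses) and within 1 slide (orange). The Cps1 difference stayed above 0 at every setting shown, from 1.47 in males to 3.08 in females, while that of Otc lay on both sides of 0.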

How the data were processed

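Signal was measured on Agilent one-colour arrays, 3 per group. The intensity values used are the processed signal deposited by the authors, per the file headers from Feature Extraction 9.5.3.1 (9.5 per the submitters' processing notes); the series table held the same values. Background subtraction and other steps were those of that software. From here, signals were put on the log2 scale relative to the 75th percentile of their array, outlier spots were left out and saturated spots kept. The filter kept the 30977 probes that exceeded background clearly in every array of some group, a gene took its brightest kept probe, and 26533 genes were fitted in limma 3.58.1 (R 4.3.3) as 4 group means. Deposited annotation columns were used for names and rn3 positions, and RefSeq names replaced those of 19931 probes. A simulated data set was used to check the fit. Same-numbered samples of a sex deviated together over 14733 genes (r = 0.529, 0.352 and 0.478 in females and 0.468, 0.599 and 0.418 in males). An alternative fit therefore took the replicate number within sex as a block. The main tests are unpaired and use no block. The 6 genes and the lists were chosen with earlier results of these data known. Named genes were the 6 members with every probe, the strongest called changes of each list (or the smallest p where none passed) and the 2 genes most alike each member. Slide 1 has few probes above background, and the number of arrays limits precision. Alternatives covered scaling, background, filters, slide, replicate and array weights.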

Additional observations from a re-analysis of the deposited data

How the results depend on the processing

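Of 876 alternative values of single genes, 759 kept direction and side of the threshold, 56 lost the call, 24 gained it and 37 changed sign. The cause was not tested. Most values had no call to lose, so the 759 say little of the calls. In females the count of 3 genes became 0 with slide as a fixed block, 5 with array weights and 0 to 4 with 1 array left out. It was 2 with quantile normalization and without the filter on dim probes, and 4 with only the groups compared. The count over all genes moved the same way, from 1098 to 300 with slide as a fixed block and 5241 with array weights. It was 562 with quantile normalization, 723 without the filter and 2675 with only the groups compared. In males the count of 2 became 1 with the array median and 0 to 2 with 1 array left out. It was 0 with slide as a fixed block, with only the groups compared and with array weights. Over all genes 2676 were called as reported and 3182 with the array median. That total was 471 with slide as a fixed block, 244 with only the groups compared and 917 with array weights. Between the sexes in vehicle the urea cycle count became 0 with slide as a fixed block and 0 with only the groups compared. It was 1 with array weights and 0 to 2 with 1 array left out. Over all genes the count of 3654 became 131 with slide as a fixed block, 790 with only the groups compared and 2254 with array weights. Between the sexes in dexamethasone the count of urea cycle genes became 2 with array weights, where 3870 of all genes were called against 768 as reported. It was 1 (Arg1) with the replicate block shared by the sexes, where 1482 of all genes were called. That block pairs samples of different animals across the sexes. Whether such pairs deviate together was not tested. The mean response lost all 4 calls (0) with slide as a fixed block, where the count over all genes fell from 3555 to 980. It gave 4 to 5 with 1 array left out. The replicate block within sex gave 4 genes in females, 3 in males and 0 for the difference of the responses. Over all genes it gave 1793, 4175 and 0 in turn. Of the 6 genes it changed only calls of Nags and Asl.

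With 1 array left out, Cps1 was called in 9 of 12 fits in males and 7 in females. Ass1 in females was called in 8 and Nags in 11. Within 1 slide, or where leaving out an array thins a group, limma assumes the remaining arrays vary like the other groups.

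Sign changes with 1 array left out were ranges of -0.76 to 0.36 for Otc in males, -0.45 to 0.021 for Otc in females, -0.49 to 0.069 for its mean response, -0.59 to 0.53 for its difference of responses, -0.41 to 0.61 for that of Cps1, -0.32 to 0.12 for that of Arg1, -0.35 to 0.024 for Nags between the sexes in vehicle, and -0.23 to 0.048 for Ass1 and -0.21 to 0.35 for Asl between the sexes in dexamethasone. The difference of responses of Otc was 0.034 with the array median, 0.28 with normexp, 0.58 with slide as a fixed block and 0.55 with array weights. That of Arg1 was 0.19 with slide as a fixed block and 0.19 with array weights, and that of Cps1 -0.064 with slide as a random block. With slide as a fixed block Cps1 was at -0.97 between the sexes in vehicle and -0.35 in dexamethasone, and Ass1 at 0.073 in dexamethasone. Array weights gave 0.063 for Otc in females, and between the sexes in dexamethasone 0.0021 for Ass1 and 0.13 for Asl. Asl there was 0.00556 with the array median and 0.061 with normexp.

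Genes called over all genes ran from 300 with slide as a fixed block to 5241 with array weights in females (1098 as reported), and from 0 within slide 1 alone to 11119 without the filter on dim probes in males (2676). For the sexes they ran from 131 to 12524 in vehicle (3654) and from 21 to 3870 in dexamethasone (768), and for the difference of responses from 0 to 6680 (28). Calls in males were 51.6% higher as reported, 66.8% with quantile normalization, 31.9% with the array median and 22.0% with normexp; in females they were 72.8%, 66.7%, 61.9% and 70.0%. The median of all genes in males was -0.07 as reported and -0.25 with normexp.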
